A study of Mus musculus with 37 samples.

Results

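Rpgrip1 and Ang, which lie near each other on mouse chromosome 14, were examined as a pair because both gave a lower signal in 129 than in C57 temporal lobe and some C57 arrays carried the 129 level of both. All probe sets whose only annotated gene symbol was Rpgrip1 or Ang were taken. They numbered 7 (4 for Rpgrip1 and 3 for Ang) of the 34945 probe sets with 1 gene symbol, which stand for 18193 genes, and of 45101 in all. The arrays measured total RNA of dissected, frozen temporal lobe from wild-type mice (WT) and mice without Wfs1 (KO), with biotin-labelled cRNA on Affymetrix mouse arrays. The C57 strain supplied 9 arrays of each genotype, and the 129 strain 9 of WT and 10 of KO. The strain labels read C57 and 129SV, and the series design names the backgrounds C57B6 and 129S6. The labels give no sex, age, litter, batch, knockout allele or breeding history, and do not say whether every array is its own mouse, which limits p-values to the spread among these samples. In whole temporal lobe, fewer cells that express a gene and less RNA per cell cannot be told apart.

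Angiogenin, the product of Ang, is a small secreted ribonuclease of the RNase A family. It stimulates the growth of blood vessels, enters cells, and cleaves transfer RNA when cells are stressed, and its human counterpart has been linked to motor neuron disease. Ang shares a promoter with Rnase4, another secreted ribonuclease of the family. Rpgrip1 encodes a scaffold protein that anchors the retinitis pigmentosa GTPase regulator, RPGR, in the connecting cilium of photoreceptors, and its loss causes retinal degeneration. Neither gene is a textbook marker of a temporal lobe cell type.

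The promoter windows are shown because Ang and Rnase4 start from the same one in the mouse RefSeq annotation, while the arrays gave these genes different strain patterns. Each window holds the 250 bases before a transcript start on the plus strand of GRCm38.p6, and the only Ang window is also the first Rnase4 window, at chr14:51090827-51091076. The second Rnase4 window is chr14:51095750-51095999, and the Rpgrip1 window is chr14:52110653-52110902. Capitals mark matches, on either strand, to the TATA box letters TATAA, to the CCAAT box and to the Sp1 motif GGGCGG, and no matches overlapped here.
Ang and Rnase4: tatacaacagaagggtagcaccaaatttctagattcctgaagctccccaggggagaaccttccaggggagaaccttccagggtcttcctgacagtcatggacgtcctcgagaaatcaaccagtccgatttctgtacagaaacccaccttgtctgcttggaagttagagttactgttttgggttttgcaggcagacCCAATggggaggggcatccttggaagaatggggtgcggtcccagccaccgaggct
Rnase4, second start: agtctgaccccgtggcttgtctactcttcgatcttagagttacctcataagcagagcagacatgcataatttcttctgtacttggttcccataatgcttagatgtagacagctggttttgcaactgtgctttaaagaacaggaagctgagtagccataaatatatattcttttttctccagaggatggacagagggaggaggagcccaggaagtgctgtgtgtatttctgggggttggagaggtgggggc
Rpgrip1: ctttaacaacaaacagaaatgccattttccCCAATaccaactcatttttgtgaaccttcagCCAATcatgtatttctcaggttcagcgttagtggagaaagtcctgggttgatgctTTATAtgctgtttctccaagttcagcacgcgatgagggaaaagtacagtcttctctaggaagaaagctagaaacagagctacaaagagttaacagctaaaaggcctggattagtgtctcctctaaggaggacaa
The shared window held CCAAT 55 bases before the start. The Rpgrip1 window held CCAAT at 220 and 189 bases before the start and TATAA on the minus strand at 134 bases before it. Among 32851 RefSeq mouse windows of this length, 33.8% held CCAAT, 22.8% TATAA and 32.7% GGGCGG. These sequences are those of the reference assembly and not of the mice measured.

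Rpgrip1 was read first on probe set 1421144_at, the brightest of its 4 by mean signal. All signals are deposited log2 values. In C57 WT they had a lowest value of 8.57, a median of 8.69 and a highest value of 9.90 (mean 8.93 ± 0.49, SD, n = 9). In 129 WT the lowest, median and highest values were 5.00, 5.80 and 6.36 (5.75 ± 0.47, SD, n = 9), and in 129 KO they were 5.28, 5.83 and 6.29 (5.76 ± 0.36, SD, n = 10). The WT arrays of the strains did not overlap. The C57 KO arrays read 6.06 (array 1), 9.39 (array 2), 9.51 (array 3), 5.90 (array 5), 9.49 (array 7), 5.71 (array 8), 8.43 (array 9), 5.57 (array 10) and 9.47 (array 17), with a mean of 7.73 ± 1.85 (SD, n = 9). They thus fell at opposite ends of the scale, 4 among the 129 arrays and 5 among the C57 WT arrays or slightly below them.

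Ang was read on probe set 1438936_s_at, its brightest. In C57 WT the signal had a lowest value of 3.77, a median of 4.26 and a highest value of 5.82 (4.56 ± 0.73, SD, n = 9). In 129 WT the corresponding values were 2.49, 2.69 and 3.08 (2.72 ± 0.17, SD, n = 9), and in 129 KO they were 2.53, 2.74 and 3.13 (2.76 ± 0.20, SD, n = 10). Again the WT arrays of the strains did not overlap. Both genes were chosen for their strain difference, and the share of all genes without such overlap was not counted. The C57 KO arrays read 2.53 (array 1), 5.63 (array 2), 5.75 (array 3), 2.71 (array 5), 5.10 (array 7), 2.81 (array 8), 4.56 (array 9), 2.59 (array 10) and 5.87 (array 17), with a mean of 4.17 ± 1.49 (SD, n = 9). The low arrays, 1, 5, 8 and 10, were those that were low for Rpgrip1.

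The strain difference chose these genes, so it is given as a description with no test. Each SE comes from the fit of all 4 groups and pools their spread, which was widest in C57 KO. On 1421144_at, 129 WT differed from C57 WT by -3.18 on the log2 scale (SE 0.44), a 9.06-fold lower Rpgrip1 signal. Among KO arrays the Rpgrip1 difference was -1.96 (SE 0.43), and it was -3.49 with C57 KO arrays 1, 5, 8 and 10 left out. For Ang the difference was -1.84 (SE 0.37) in WT, a 3.58-fold lower signal in 129, and -1.41 (SE 0.36) in KO, or -2.62 without the same arrays. Both 129 means of Ang lay below 3.60, the 40th percentile of probe set means that served as the filter on low signals. Ang therefore passed that filter only through its C57 groups, and no detection calls were used to say whether its 129 signal stood above background.

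**Figure D1:**
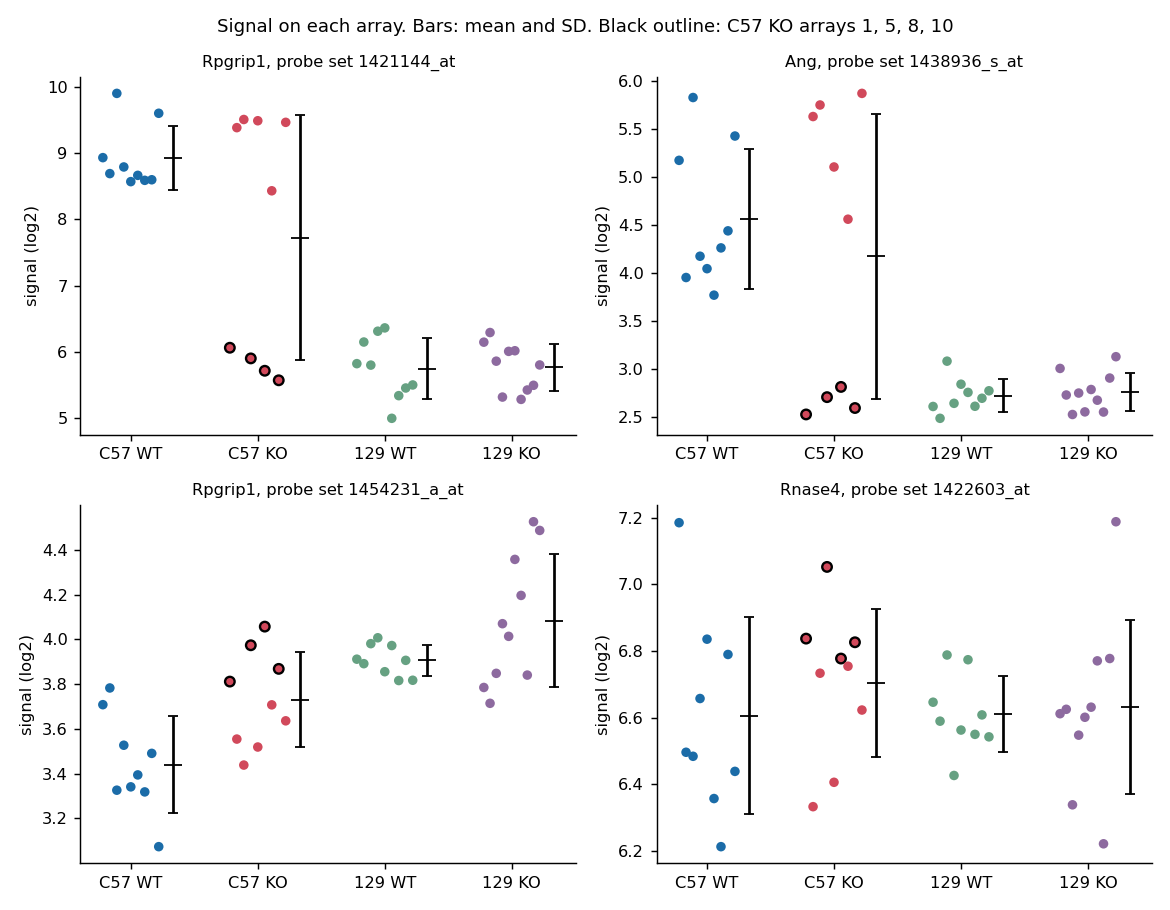
Each point is the deposited log2 signal (vertical axis) of 1 array in the 4 groups (horizontal axis), for 2 Rpgrip1 probe sets, Ang and Rnase4, with bars for the mean and SD of each group. The outlined C57 KO arrays 1, 5, 8 and 10 lie within the 129 range on the Rpgrip1 and Ang panels, while Rnase4 shows all 4 groups at about the same level.

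The other probe sets of both genes did not all repeat this pattern. Rpgrip1 probe set 1454231_a_at ran the opposite way, with 3.44 ± 0.22 in C57 WT, 3.73 ± 0.21 in C57 KO, 3.91 ± 0.07 in 129 WT (SD, n = 9 each) and 4.08 ± 0.30 in 129 KO (SD, n = 10). On it 129 exceeded C57 by 0.47 (SE 0.10) in WT and by 0.35 (SE 0.10) in KO. Its C57 WT mean was below the filter. Rpgrip1 probe sets 1431357_a_at and 1451785_at stayed below the filter, with group means from 2.62 to 2.80 and from 2.08 to 2.16, and all 18 C57 arrays lay in the 129 range of each. Ang probe set 1438937_x_at kept the direction at a low signal, with 2.65 ± 0.32 in C57 WT, 2.44 ± 0.48 in C57 KO, 2.07 ± 0.15 in 129 WT (SD, n = 9 each) and 1.99 ± 0.17 in 129 KO (SD, n = 10). Ang probe set 1450717_at had group means from 2.16 to 2.29. In all, 3 of the 7 probe sets passed the filter, 1421144_at, 1454231_a_at and 1438936_s_at. Affymetrix gives the endings _s_at and _x_at to probe sets whose probes may match further transcripts. Whether the probes of any of these sets match C57 and 129 transcripts equally well was not tested, and no probe sequences were used here.

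A C57 array was counted at the 129 level when its signal lay between the lowest and highest of the 19 129 arrays, which were 5.00 and 6.36 for Rpgrip1 and 2.49 and 3.13 for Ang. For Rpgrip1 4 of 18 C57 arrays met this, for Ang 4 of 18, and they were the same arrays, C57 KO 1, 5, 8 and 10. For Rpgrip1 the highest of them read 6.06, while the nearest C57 array outside, C57 KO 9, read 8.43, leaving a gap of 2.07 above the 129 range. For Ang the highest read 2.81 and the nearest array outside, C57 WT 34, read 3.77, 0.64 above the 129 range. They made up 4 of 9 C57 KO and 0 of 9 C57 WT arrays (2-sided Fisher's exact p = 0.0824). Both genes give the same split, so this is 1 test and not a result for each gene. The split was among the reasons for examining the pair, and the p-value takes the arrays as independent, which the labels do not state. Of the 4, 2 belong to the lower and 2 to the higher sample numbers of their group. On 1454231_a_at, the same arrays and C57 WT 26 lay in the 129 range, and on 1438937_x_at the same arrays with C57 WT 40 and C57 KO 9 did.

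These arrays carried their labelled genotype. Wfs1 read 9.32 ± 0.17 in C57 WT, 3.03 ± 0.26 in C57 KO, 9.33 ± 0.12 in 129 WT (SD, n = 9 each) and 3.11 ± 0.28 in 129 KO (SD, n = 10). KO minus WT was -6.29 in C57 (SE 0.10) and -6.22 in 129 (SE 0.10), with limma adjusted p-values of 6.36e-35 and 3.53e-35. On each cell type marker list, arrays 1, 5, 8 and 10 overlapped with the other C57 KO arrays. Their mean over 9 neuron markers ranged from 8.88 to 9.05 against 8.92 to 8.99 in the other C57 KO arrays. Over 8 astrocyte markers the ranges were 9.50 to 9.65 and 9.50 to 9.68, and over 7 vessel markers 5.92 to 6.04 and 5.46 to 6.07. Over 8 microglia markers they were 6.83 to 7.15 and 6.98 to 7.09, and over 10 choroid plexus and ependyma markers 3.75 to 4.02 and 3.52 to 4.18.

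The 14 other C57 arrays were not uniform either. Ordered by Rpgrip1 signal, the widest gap among them ran from 8.93 to 9.39, with 6 arrays above it, C57 WT 28 and 42 and C57 KO 2, 3, 7 and 17. Ordered by Ang signal, the widest gap ran from 4.56 to 5.10 with 7 arrays above it, the same 6 and C57 WT 25. The signals of the pair had a Pearson correlation of 0.88 (Spearman 0.72) over these 14 arrays, and 0.86 without the 2 arrays farthest from the median of Rpgrip1. Over the 19 129 arrays the correlation was 0.05 (Spearman 0.00). Over all 37 arrays it was 0.94 and over the 18 C57 arrays 0.92, values that rest on the separate clusters. These correlations are descriptions of arrays that share their hybridizations, and the pair was chosen for moving together.

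**Figure D2:**
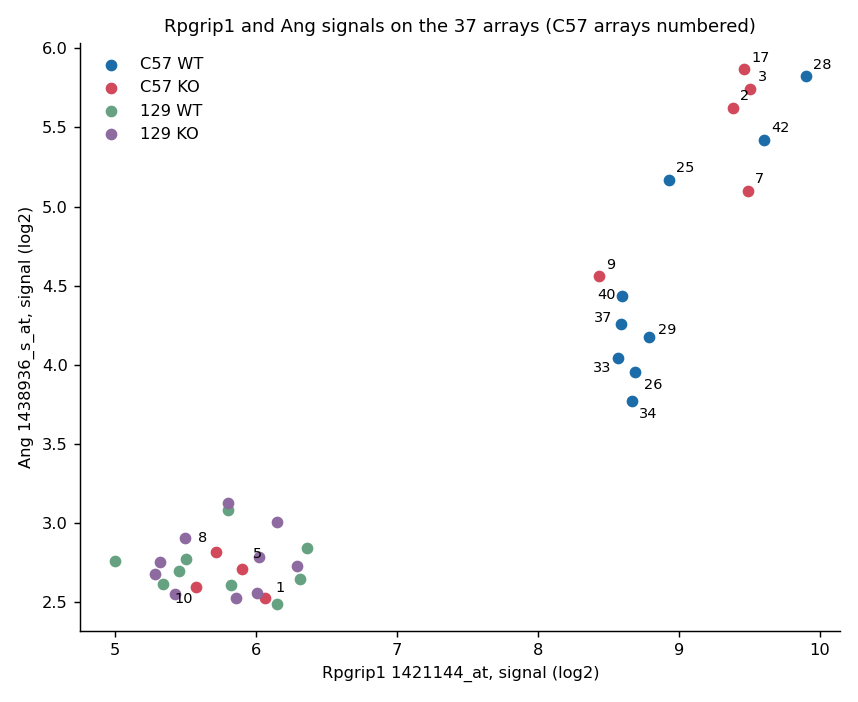
Each point is 1 of 37 arrays, placed by its log2 signal of Rpgrip1 1421144_at (horizontal axis) and Ang 1438936_s_at (vertical axis), with C57 arrays numbered and colors for the 4 groups. C57 KO arrays 1, 5, 8 and 10 sit in the cluster of 129 arrays, below 6.36 on the Rpgrip1 axis and 3.13 on the Ang axis, and the other C57 arrays form a separate band that starts at 8.43 for Rpgrip1 and 3.77 for Ang.

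The comparison of KO with WT asked whether the loss of Wfs1 moved either gene. Genotype itself was not a rule of choice, but the C57 arrays at the 129 level, a reason for examining the pair, were all KO. The C57 differences and p-values of 1421144_at and Ang below are therefore not independent of that choice. In limma 0 of the 3 probe sets that passed the filter were called at an adjusted p under 0.05, in a comparison where 0.0858% of all probe sets tested were called in C57 and 0.00429% in 129. Of the 3, Ang passed the filter only through its C57 groups, so its 129 result says little about a KO effect there. In C57 the KO arrays differed from WT on Rpgrip1 1421144_at by -1.20 (SE 0.44, 95% interval -2.09 to -0.31, limma adjusted p = 0.671, unadjusted p = 0.00934 from limma, exact permutation p = 0.0766). The SEs, intervals and limma p-values of this paragraph use 1 spread pooled over the 4 groups. For this probe set the SDs were 0.49 in C57 WT, 1.85 in C57 KO, 0.47 in 129 WT and 0.36 in 129 KO. The pooled value thus understates the spread among C57 KO arrays, while the permutation test used the C57 arrays alone. Ang differed by -0.39 (SE 0.37, interval -1.13 to 0.35, limma adjusted p = 0.999, exact permutation p = 0.487). On 1454231_a_at the Rpgrip1 difference was 0.29 (SE 0.10, interval 0.09 to 0.49, limma adjusted p = 0.623). Its unadjusted limma p was 0.00629 and its exact permutation p 0.0121, neither adjusted for the number of probe sets.

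The C57 KO means rest on the arrays at the 129 level. With C57 KO 1, 5, 8 and 10 left out, 5 KO arrays remained, and KO minus WT turned to 0.33 for Rpgrip1 1421144_at and 0.82 for Ang, values with no test because those arrays were picked by their level. On 1454231_a_at the difference went to 0.13. Within the lower and the higher sample numbers, which the labels do not explain, Rpgrip1 1421144_at differed by -1.01 and -1.51 and Ang by -0.44 and -0.43. On 1454231_a_at the C57 difference was 0.07 among the lower and 0.49 among the higher sample numbers, and the 129 difference was -0.04 and 0.40.

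In 129 the KO and WT arrays overlapped throughout. Rpgrip1 1421144_at differed by 0.02 (SE 0.43, exact permutation p = 0.933), Ang by 0.04 (SE 0.36, exact permutation p = 0.655) and 1454231_a_at by 0.18 (SE 0.10, exact permutation p = 0.102). Each SE of this paragraph again pools the spread of the 4 groups. In 129 WT and KO the SDs were 0.47 and 0.36 for 1421144_at, and 0.17 and 0.20 for Ang. For these 2 probe sets the SEs therefore overstate the spread within 129. The KO effect in C57 minus that in 129 was -1.22 (SE 0.61) for Rpgrip1, -0.43 (SE 0.51) for Ang and 0.11 (SE 0.14) for 1454231_a_at. For this difference of effects 0 of 3 were called in limma, against 0.0257% of all probe sets. Both 129 means of Ang lay below the filter, which limits its values here.

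Within the RNase A family, 11 of 25 listed genes were on the arrays as probe sets of 1 symbol, and only Ang and Rnase4 passed the filter. Rnase4 had a signal of 6.61 ± 0.30 in C57 WT, 6.70 ± 0.22 in C57 KO, 6.61 ± 0.11 in 129 WT (SD, n = 9 each) and 6.63 ± 0.26 in 129 KO (SD, n = 10). The strains differed by 0.00 (SE 0.11, limma adjusted p = 0.996) in WT and by -0.07 (SE 0.10, limma adjusted p = 0.900) in KO. In C57 KO arrays 1, 5, 8 and 10 Rnase4 ranged from 6.78 to 7.05, and in the other 5 C57 KO arrays from 6.33 to 6.75. These ranges nearly met, at 6.78 for C57 KO 8 and 6.75 for C57 KO 9. How many other genes part the same C57 KO arrays was not counted. The C57 WT arrays spanned both ranges, from 6.21 to 7.19, and 17 of the 18 C57 arrays lay within the 129 range of Rnase4. The other 9 family members, among them Ang2, Ang4, Rnase1 and Rnase6, ranged from 1.75 to 3.69 over all arrays.

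Partners of angiogenin were listed as 11 genes, all tested. None passed in limma between the strains, where 1.9% of all genes passed in WT and 2.87% in KO. For KO against WT none passed either, beside 0.0918% of all genes in C57 and 0.00765% in 129. With 11 genes, counts of 0 lie near these shares. Rnh1, the cytosolic inhibitor that binds angiogenin tightly, differed between WT strains by -0.02 (SE 0.06), and Plxnb2, a receptor of angiogenin, by -0.04 (SE 0.05). The median difference of the list was -0.02 in WT and 0.00 in KO, beside 0.02 and -0.01 over all genes tested.

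Among genes of RPGR and the connecting cilium, 27 of 32 listed were on the arrays and 24 were tested. Of these, 3 passed between the WT strains in limma, 2 higher and 1 lower in 129, where 1.9% of all genes passed. Tctn2 and B9d1, components of the transition zone at the base of cilia, were higher in 129 by 0.27 (SE 0.06, limma adjusted p = 0.00945) and 0.45 (SE 0.11, limma adjusted p = 0.0239). Arl3, a small GTPase that releases lipid-bound cargo in cilia, was lower, at -0.19 (SE 0.05, limma adjusted p = 0.0498). Between the KO groups 4 of 24 passed, beside 2.87% of all genes, with B9d1 at 0.43, Invs at 0.32 and Cep164 at 0.26 higher in 129 and Arl3 at -0.18. The median difference of the list was 0.02 in WT and 0.02 in KO. Rpgr itself, the partner for which Rpgrip1 is named, read 6.62 ± 0.13 in C57 WT, 6.53 ± 0.18 in C57 KO, 6.59 ± 0.10 in 129 WT (SD, n = 9 each) and 6.56 in 129 KO. For KO against WT 0 of 24 passed in either strain, near the shares over all genes of 0.0918% in C57 and 0.00765% in 129. Photoreceptor markers were near the bottom of the scale. Of 9 on the arrays only Sag, Crx and Rom1 passed the filter, and the list mean per array ran from 2.88 to 3.13 over all arrays. In limma 0 of 3 passed in either strain or KO comparison, which is near the shares of all genes given above.

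The genes around the pair were taken from the gene order of the mouse RefSeq table for GRCm38.p6. Between Ang and Rpgrip1 it lists 49 genes, and with 50 beyond each there were 149 neighbours, of which 36 had a probe set and 21 were tested. Between the WT strains 5 of 21 passed in limma, 3 higher and 2 lower in 129, where 1.9% of all 13078 genes passed. The predicted gene Gm26782 was lower, at -1.49 (SE 0.28, limma adjusted p = 0.00171), and Chd8, a chromatin remodeller, was at -0.39 (SE 0.11, limma adjusted p = 0.0394). Higher in 129 were Ttc5, a cofactor of p53, by 0.61 (SE 0.15, limma adjusted p = 0.0157), Supt16, a subunit of the histone chaperone FACT, by 0.43 (SE 0.10, limma adjusted p = 0.00937), and Parp2, a DNA repair enzyme, by 0.22 (SE 0.06, limma adjusted p = 0.0408). Neighbours between these genes, such as Rnase4, Ndrg2 and Hnrnpc, did not pass.

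Between the KO groups 5 of 21 neighbours passed in limma as well, 2 higher and 3 lower in 129, beside 2.87% of all genes. They were Gm26782 at -1.13 (SE 0.28), Slc39a2, a zinc transporter, at -0.48 (SE 0.14), Chd8 at -0.41 (SE 0.10), Mettl17, a mitochondrial ribosome assembly factor, at 0.29 (SE 0.08) and Parp2 at 0.23 (SE 0.06), with limma adjusted p from 0.0145 to 0.0461. Ttc5 at 0.47 (limma adjusted p = 0.0634) and Supt16 at 0.27 (limma adjusted p = 0.143) did not pass there. For KO against WT, 0 of 21 passed in limma in C57 (1 at an unadjusted p under 0.05) and 0 in 129 (0 unadjusted), beside 0.0918% and 0.00765% of all genes. The neighbour counts were not firm. Fitted on the compared groups alone, 0 neighbours passed between the KO groups, and within the lower and the higher sample numbers 0 and 1 passed between the WT groups and 0 and 0 between the KO groups. The WT count fell from 5 to 3 without any one of C57 WT 28, 34 or 42 or 129 WT 72, 74, 77, 78 or 79. The KO count fell to 3 without C57 KO 2 or 7 or 129 KO 52, and to 2 without C57 KO 3 or 17.

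**Figure D3:**
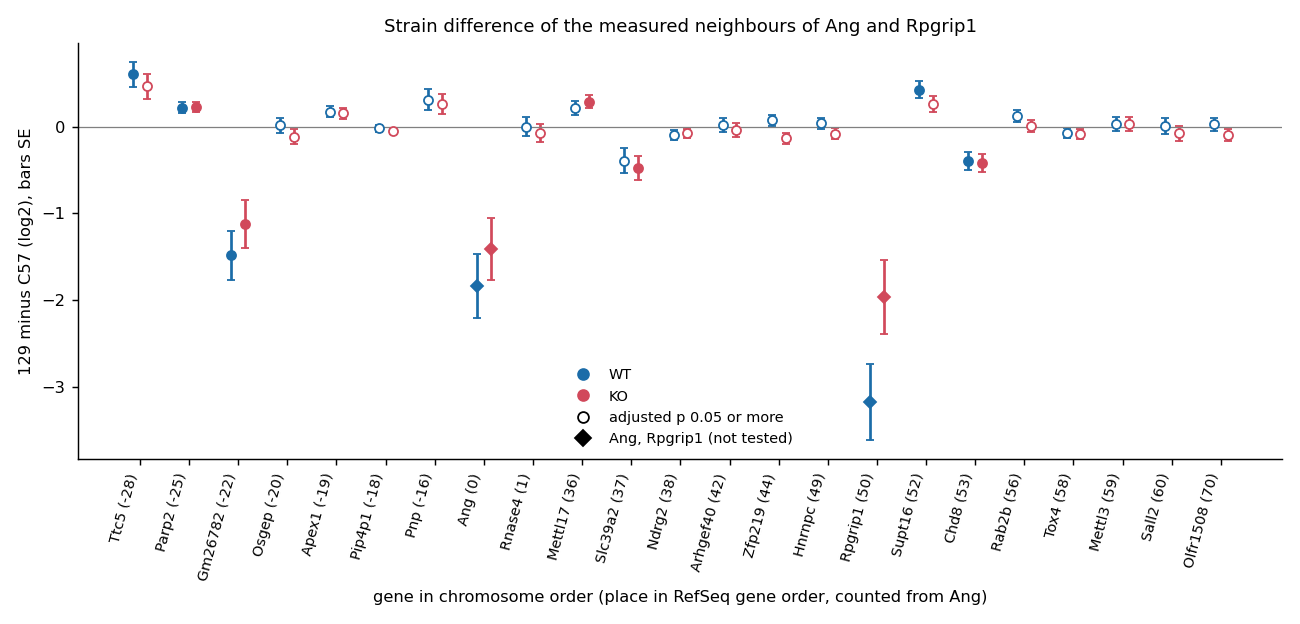
The 129 minus C57 difference (vertical axis, log2, bars SE) is drawn for the 21 tested neighbours and for Ang and Rpgrip1 in chromosome order (horizontal axis, place in the gene order counted from Ang), in WT and KO arrays. Ang and Rpgrip1 have the lowest values with Gm26782 after them, genes such as Rnase4 beside Ang lie at 0, and Ttc5, Parp2 and Supt16 lie above 0.

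Genes most like the pair were ranked by Pearson correlation over tested genes, as a description. Over all 37 arrays those most like Rpgrip1 were Ang (0.94), Ppp1r3e (0.92), a glycogen-targeting subunit of protein phosphatase 1, Chd8 (0.82), Ldb3 (0.80) and Slc39a2 (0.78). Those most like Ang were Rpgrip1 (0.94), Ppp1r3e (0.88), Ldb3 (0.82), Slc39a2 (0.81) and Chd8 (0.79). Like Ang, Ldb3 passed the filter only through its C57 groups, with means of 2.89 in 129 WT and 2.89 in 129 KO. Over the 18 C57 arrays the genes most like Rpgrip1 were Ang (0.92), Ppp1r3e (0.91), Prmt5 (0.80), Tox4 (0.78) and Zfhx2 (0.73). For Ang they were Rpgrip1 (0.92), Ppp1r3e (0.86), Prmt5 (0.85), Chd8 (0.80) and Slc39a2 (0.72). All of these genes lie on chromosome 14, but not all lie near the pair. In gene order counted from Ang, Rpgrip1 is at 50, Prmt5 at 303, Ppp1r3e at 324, Zfhx2 at 340 and Ldb3 at -352. Among the genes with the 10 largest correlations in either direction, 10 and 10 lay there for Rpgrip1 (over 37 and over 18 arrays) and 9 and 10 for Ang, although 439 of the 13078 genes tested lie on that chromosome. Each count includes the other gene of the pair, which was chosen for moving together with it. Supt16 (-0.91 with Rpgrip1 and -0.89 with Ang over 37 arrays) and Ttc5 (-0.87 and -0.91) were the most opposite, and are named here after their values were seen.

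The split of the C57 arrays was then looked for in all tested genes, a step added after the data were seen. Of 13078 genes, 39 had exactly 4 C57 arrays within their 129 range, in 31 different sets of arrays. The set C57 KO 1, 5, 8 and 10 was found for 4 genes, Rpgrip1, Ang, Supt16 and Ppp1r3e, and all 4 lie on chromosome 14. Rpgrip1 and Ang had defined that set, so only Supt16 and Ppp1r3e were found by the search. For Ppp1r3e these arrays read 4.26 to 4.59, inside a 129 range of 4.04 to 4.82, and the other C57 arrays read 5.02 to 5.86. Supt16 was opposite in direction, with 8.59 to 8.92 in these arrays, 8.55 to 8.95 in 129 and 7.97 to 8.52 in the other C57 arrays. Gm26782 read 3.03 to 3.90 in them against 4.36 to 6.15 in the other C57 arrays, with C57 KO 1 below its 129 range of 3.31 to 3.91. Ttc5 had these arrays and C57 WT 25 in its 129 range, so the same KO arrays stood with 129 in genes that were lower and in genes that were higher in that strain. Not every gene most like the pair shared the split. Slc39a2 had C57 WT 37 and 40 and C57 KO 1, 5 and 8 in its 129 range, and Ldb3 had C57 WT 40 and C57 KO 5 and 10.

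**Figure D4:**
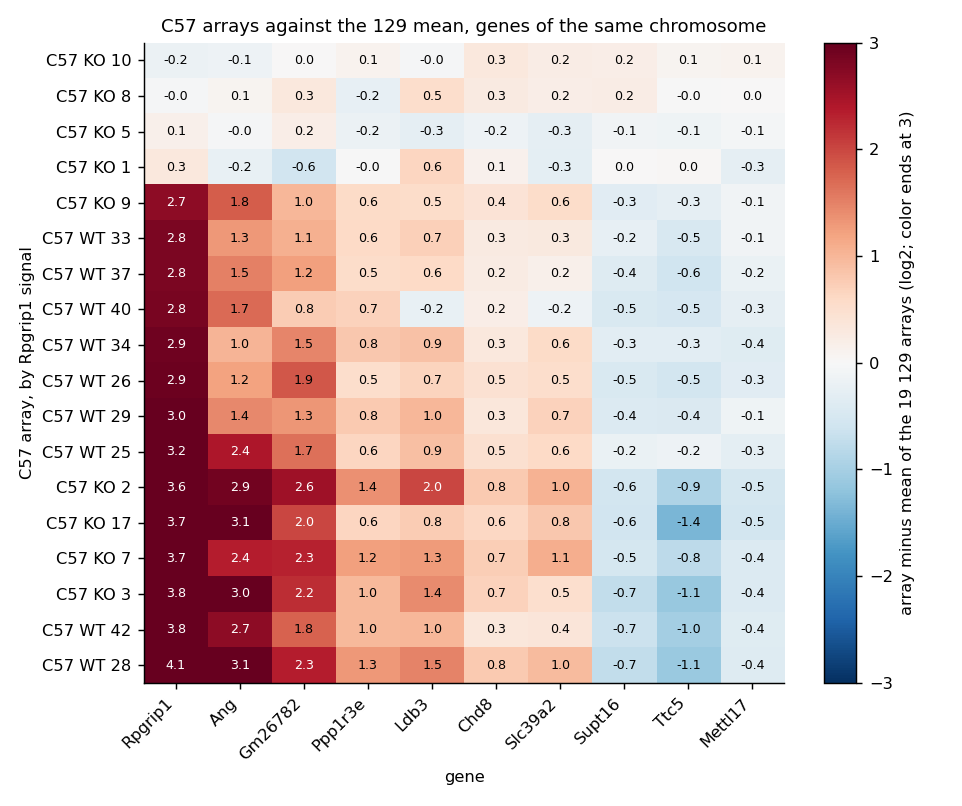
Each cell is the log2 signal of 1 C57 array (rows, ordered by Rpgrip1) minus the mean of the 19 129 arrays, for 10 chromosome 14 genes (columns); red is above and blue below the 129 mean. C57 KO arrays 10, 8, 5 and 1 fill the top rows near 0, while the other 14 C57 arrays are above the 129 mean for Rpgrip1, Ang, Gm26782 and Ppp1r3e and below it for Supt16 and Ttc5.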

How the data were processed

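The authors' deposited table gave 1 log2 signal per probe set and array, and MAS5 and GCRMA are named in the submitters' processing notes without their roles. The genome build and annotation behind the values are not given in the sources used here. Values ran from 1.34 to 13.76 with array medians from 4.30 to 4.36, and were used as deposited. No scanner files were used, and the number of arrays limits the precision. Probe sets were named through the platform's annotation, in which 34945 had 1 symbol, 932 several and 9160 none (64 were controls), and 34737 of the first matched the mouse RefSeq gene table by gene ID. A probe set was tested when its mean reached 3.60 in at least 1 group, which left 23321 probe sets and 13078 genes, each gene by its brightest probe set. A linear model with a mean for each of the 4 groups was fitted across the 37 arrays in limma 3.58.1 (R 4.3.3), with 2-sided tests, Benjamini-Hochberg adjustment and calls at an adjusted p under 0.05. The 4 probe sets of the pair below the filter were described from a fit without it. Exact permutation and Fisher's exact tests were 2-sided (Python 3.11.15, NumPy 2.4.6, SciPy 1.17.1, pandas 2.3.3), and plots used matplotlib 3.10.9. On simulated data for 23321 probe sets, shifts of 1.0 were called in 98% of cases for KO against WT in C57, 99% in 129 and 98% between WT strains, and shifts of 0.5 in 88%, 91% and 87%. Named were all probe sets of the pair, Wfs1, the 5 genes most correlated with either over 37 and over 18 arrays (clone names and predicted genes skipped, except where said), tested RNase A genes, called neighbours and up to 3 called genes of each list. The members, lists and tests were chosen with earlier results of these data known.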

Additional observations from a re-analysis of the deposited data

Results flagged for a closer look

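On Rpgrip1 probe set 1431357_a_at, 129 WT array 74 read 3.27 while the next highest array of its group read 2.92. Its gap to that array was 0.55 of the group's range, above Dixon's critical value of 0.493 for 9 arrays. This was the only such array among 28 combinations of probe set and group checked, for 7 probe sets of the pair in 4 groups, where chance alone marks about 1 in 20. The probe set lies below the filter on low signals.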

How the results depend on the processing

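No paired analysis was possible because sample numbers are unique to each array and no number is shared between groups. Under every alternative run (no filter, 60th percentile filter, quantile normalization, median centring, 1 probe set per gene, eBayes with trend, array weights, only the compared groups, sample number set as a block or alone, and each array left out), wherever the probe set was tested, the strain differences of 1421144_at, 1438936_s_at and 1454231_a_at kept their direction. With 1 array left out they ranged from -3.26 to -3.06 and -2.23 to -1.74 for Rpgrip1 1421144_at (WT and KO), and from -1.94 to -1.68 and -1.62 to -1.20 for Ang. KO minus WT in C57 ranged from -1.42 to -0.93 for Rpgrip1 (limma adjusted p from 0.405 to 0.951) and from -0.60 to -0.18 for Ang. It moved to 0.33 and 0.82 without the 4 C57 KO arrays at the 129 level, an alternative chosen after seeing the data. On 1454231_a_at, the difference of 0.29 had an exact permutation p of 0.0121 and a limma p of 0.00629, both unadjusted, and did not pass after adjustment in limma. The count of C57 arrays at the 129 level was 3 to 4 with 1 array left out, 16 on Ang 1450717_at, and 18 on Rpgrip1 1431357_a_at and 1451785_at. Neighbours passing between KO groups numbered 2 to 7 with 1 array left out, 3 with the 60th percentile filter, and 0 with only the compared groups and within either sample number set. Between WT groups they numbered 3 to 5 with 1 array left out, and 0 and 1 within the sets. Fewer arrays enter those fits, and the cause of the other moves was not tested.

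Over all probe sets, 472 passed between WT strains, against 1176 with array weights, 269 with 1 probe set per gene, and 110 and 216 within the sets. Between KO groups 702 passed, against 400 with 1 probe set per gene, 465 with only these groups, and 415 and 55 within the sets. For KO against WT in C57, 20 passed, against 13 with the 60th percentile filter, 7 with the C57 groups alone, 10 and 8 within the sets, 11 without C57 KO 3, 13 without C57 WT 25 and 12 without C57 WT 42. In 129, 1 passed, and 2 without 129 KO 54. The difference of KO effects passed in 6, against 2 with 1 probe set per gene and 3 and 1 within the sets.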

Other observations

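Another set of 4 C57 arrays was shared by as many genes. C57 KO 1, 2, 9 and 17 were the C57 arrays within the 129 range for Mcm6, Pam, Shisa4 and Stk25, and these 4 genes all lie on chromosome 1. On chromosome 14, 24 of 439 tested genes had 9 or fewer C57 arrays within their 129 range, out of 410 such genes in all, while the median over all tested genes was 17 of 18 arrays.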
